A study of Ambystoma mexicanum with 20 samples.

Results

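The comparison described here is that of the axolotl (Ambystoma mexicanum) limb epidermis at 8 days post amputation (dpa) with the same tissue at 3 dpa, both after MS-275. It rests on 4 of the 20 samples of the series, 2 per time point, and was read against the 4 epidermis samples given DMSO, the solvent, at the same days. The 2 epidermis samples at 0 dpa, which carry a DMSO label and were taken at amputation, shared the statistical model. Juvenile animals had both forelimbs amputated through the mid upper arm, and 25 mM MS-275 or DMSO was injected beneath the wound epidermis every other day. The distal 2 mm of the limb was then split into epidermis and soft tissue (ST), and each biological replicate was a pool of 4 limbs from 2 animals. MS-275 was thus given to the whole limb tip and not to the epidermis alone. Of the 180605 transcripts in the table, 88139 were tested, those with a value above 0 in 5 or more of the 10 samples from epidermis.

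After amputation, keratinocytes migrate over the stump and form the wound epidermis, which thickens into an apical cap and signals to the cells that build the blastema. Leukocytes and blood enter the wound early, and the epidermis later restores its junctions and barrier. MS-275 (entinostat) inhibits class I histone deacetylases, enzymes that remove acetyl groups from histones and so influence gene expression. The comparison asks how the inhibited wound epidermis changed between the wound healing stage and the stage at which a blastema normally forms.

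Values are the authors' TPM, a normalized abundance in which each transcript is a share of the fixed total of its sample. Changes are log2 fold changes of TPM + 0.1 with their standard error (SE), which understates the change of weakly expressed genes. A transcript was called when its adjusted p in a limma fit over the 10 samples was under 0.05. No counts were used, so the depth of the samples is unknown. The tested transcripts had a median log2 fold change of -0.13 from 3 to 8 dpa with MS-275 and of 0.53 with DMSO. After each sample was divided by its median ratio to the average sample (rescaled TPM), these medians were 0.04 and 0.01. Both 8 dpa DMSO samples stood apart from the others, with median ratio factors of 1.48 and 1.38 against 0.745 to 1.06 in the other 8 samples. RPL23, CIRBP and EEF1AS are genes that every cell uses. In both 8 dpa DMSO samples the main (most abundant paired) transcripts of RPL23 and CIRBP and the only paired transcript of EEF1AS were listed at 0. A value listed at 0 is therefore given as such, without a fold change. Among the 4 MS-275 samples, replicates of a group correlated at 0.909 and 0.916 on the log scale, against 0.883 to 0.891 between the time points.

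The keratinocyte markers KRT12, DSP and TP63 set the epidermis samples apart from ST, while KRT5 and KRT17 overlapped between the tissues. The keratin KRT12 was at 324 to 1144 TPM in the 10 epidermis samples and at 0.45 to 138 TPM in ST. KRT5 was at 9.2 to 132 TPM against a listed 0 to 14.0 TPM, and KRT17 at 43.05 to 989 TPM against 0.44 to 289 TPM. COL17A1 of the basal layer also overlapped, at 14.1 to 65.3 TPM against 0.10 to 16.8 TPM. LAMA5, also of the basal side, did not separate the tissues, at 0.08 to 1.77 TPM in epidermis and 0.63 to 3.41 TPM in ST. Connective tissue was not absent, since the collagen gene COL1A1 was at 114 to 1388 TPM in the epidermis samples. The muscle marker ACTA1 lay between a listed 0 and 7.44 TPM in epidermis and the endothelial marker VWF between 0.03 and 0.47 TPM. Other muscle markers reached 77.7 TPM (CKM), 16.3 TPM (MYL1) and 3.43 TPM (TNNC2) in epidermis. Skeletal muscle genes summed to 154 and 272 TPM at 3 dpa and to 200 and 272 TPM at 8 dpa with MS-275. With DMSO they summed to 28.6 and 146 TPM and then to 27.8 and 33.5 TPM, and in ST to 3186 TPM or more.

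Few transcripts passed the test. With MS-275, 10 transcripts rose (0.0113% of those tested) and 22 fell (0.0250%) between 3 and 8 dpa, 32 in all (0.0363%). With DMSO, 4671 rose (5.30%) and 424 fell (0.481%), and with rescaled TPM 646 (0.733%) and 681 (0.773%), 1327 in all (1.51%). At an unadjusted p under 0.05, the MS-275 comparison held 3416 higher (3.88%) and 7428 lower (8.43%) transcripts. The count of 32 depended on single samples, controls included. Without 3 dpa DMSO replicate 1 or 2 it was 355 or 341, without 8 dpa DMSO replicate 1 or 2 it was 2 in each case, and without 0 dpa replicate 1 or 2 it was 22 or 30. Without 3 dpa MS-275 replicate 1 or 2 it was 11 or 9, and without 8 dpa MS-275 replicate 1 or 2 it was 0 or 6. The limma fit that gave 0 still had 7730 transcripts at an unadjusted p under 0.05. With rescaled TPM 27 transcripts were called (0.0306%), 9 higher (0.0102%) and 18 lower (0.0204%), and 19 of them were among the 32.

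Of the 32 called transcripts, 10 carried a gene symbol, and 5 of those were the most abundant transcript paired with their symbol. These 5 genes were PRDX2 and GKN2, which rose, and CATHL1, NNMT and B4GALT1, which fell. For all of them but NNMT it was the only paired transcript, so other transcripts of these genes may be missing. PRDX2 encodes peroxiredoxin 2, a peroxide-reducing enzyme abundant in red blood cells. It measured 20.58 and 18.33 TPM at 3 dpa and 67.50 and 56.94 TPM at 8 dpa with MS-275, so that it rose by 1.67 on the log2 scale (SE 0.186, adjusted p = 0.0488). With DMSO it went the other way, from 40.01 and 49.30 TPM to 10.80 and 11.96 TPM, and the difference between the changes was 3.63 (adjusted p = 0.00219). The 8 dpa MS-275 samples were therefore the highest of the 10 and the 8 dpa DMSO samples the lowest.

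GKN2 encodes gastrokine 2, a secreted protein known from the mammalian stomach lining. It was at 2.23 and 3.14 TPM at 3 dpa and at 17.45 and 15.95 TPM at 8 dpa with MS-275, having risen by 2.61 on the log2 scale (SE 0.293, adjusted p = 0.0488). It also rose with DMSO, from 1.53 and 1.32 TPM to 9.47 and 14.55 TPM, and was listed at 0 in both samples at 0 dpa. The difference between the changes was -0.35 (SE 0.415, adjusted p = 0.656), so of the 5 genes it was the one called in the same direction under both treatments.

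CATHL1, a cathelicidin from which an antimicrobial peptide is cut, was at 32.81 and 31.21 TPM at 3 dpa and at 7.05 and 4.63 TPM at 8 dpa with MS-275. It fell by 2.47 on the log2 scale (SE 0.240, adjusted p = 0.0488), while the 4 DMSO samples lay between 15.72 and 20.79 TPM. MS-275 samples thus lay above the DMSO samples at 3 dpa and below them at 8 dpa, and the difference between the changes was -2.67 (adjusted p = 0.0102). NNMT, which methylates nicotinamide, stood at 214.14 and 268.51 TPM at 3 dpa and at 52.53 and 42.47 TPM at 8 dpa. It fell by 2.34 (SE 0.255, adjusted p = 0.0488). Its 8 dpa level with MS-275 was close to the 53.52 and 53.22 TPM with DMSO, and the groups were apart at 3 dpa, where DMSO samples had 73.35 and 117.11 TPM. The difference between the changes did not pass the threshold (-1.55, adjusted p = 0.0526). B4GALT1, a Golgi enzyme that adds galactose to glycoproteins, was at 16.14 and 12.92 TPM at 3 dpa and at 4.75 and 4.94 TPM at 8 dpa. It fell by 1.56 (SE 0.174, adjusted p = 0.0488) and was at 14.17 and 14.96 TPM at 8 dpa with DMSO, with a difference between the changes of -1.91 (adjusted p = 0.0107).

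All 5 genes kept their direction in the 21 alternative fits, but their calls did not. PRDX2 was called in 6 of the 21, GKN2 in 4, CATHL1 in 8, NNMT in 5 and B4GALT1 in 4, with adjusted p from 0.00974 to 0.329. Over the 20 alternative fits of the difference between treatments, it ranged from 3.48 to 4.58 for PRDX2 and from -2.96 to -1.72 for CATHL1. It ranged from -2.07 to -0.96 for B4GALT1, from -1.88 to -0.59 for NNMT and from -0.66 to 0.59 for GKN2.

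**Figure D1:**
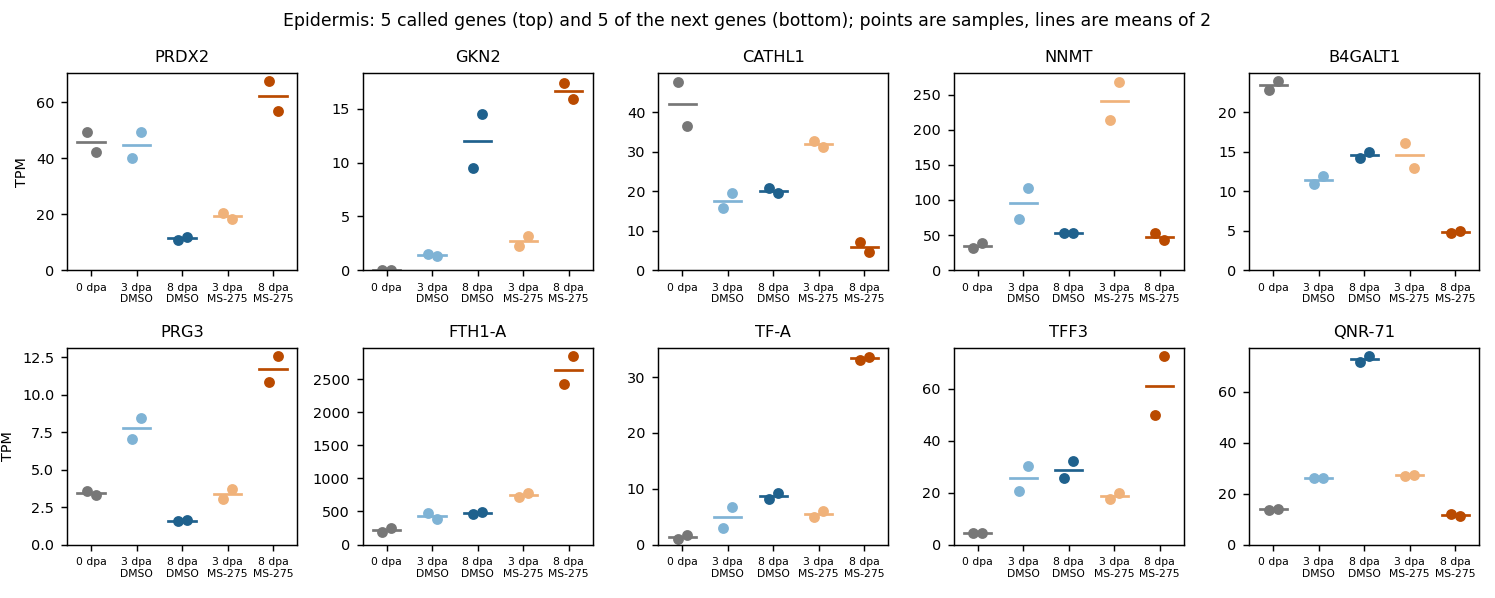
TPM (vertical axis, linear from 0) of 10 genes in the 10 epidermis samples. The horizontal axis gives the group, each point is 1 sample and each line the mean of 2. The top row holds the 5 called genes and the bottom row PRG3, FTH1-A, TF-A, TFF3 and QNR-71, which were not called. PRDX2 and PRG3 are lowest at 8 dpa with DMSO and highest at 8 dpa with MS-275.

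The other 5 called transcripts with a symbol were minor forms of their genes and were named after their values were seen. KAZALD1, a secreted protein, had a minor transcript at 4.86 and 11.23 TPM at 3 dpa and at 0.02 TPM and a listed 0 at 8 dpa. Its main transcript measured 62.90 and 47.70 TPM at 3 dpa and 152.12 and 103.96 TPM at 8 dpa (adjusted p = 0.261), so the transcripts of the gene differed in direction. AHNAK, a giant scaffold protein, had 16 paired transcripts, and all 16 were lower at 8 dpa, 1 of them past the threshold. Their sum was 307 and 304 TPM at 3 dpa and 155 and 145 TPM at 8 dpa, whereas with DMSO it was 268 and 292 TPM and then 757 and 576 TPM. VUBI had 1 called transcript of 2, at 14.11 and 15.96 TPM at 3 dpa and 5.22 and 4.13 TPM at 8 dpa. The transcript of DUSP22A, a phosphatase, was listed at 0 in both 3 dpa samples and was at 1.03 and 0.86 TPM at 8 dpa. A minor transcript of the beta globin HBB1 rose from 5.58 and 4.92 TPM to 18.75 and 23.66 TPM.

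The remaining 22 called transcripts have no symbol in the pairing used here, and their identity is not known. The largest falls were among them. GFZP01019223.1 measured 54.07 and 79.60 TPM at 3 dpa and 0.06 and 0.17 TPM at 8 dpa with MS-275, and so fell by 8.30 on the log2 scale (SE 0.413, adjusted p = 0.00156). GFZP01139686.1 measured 915.78 and 2074.97 TPM and then 9.50 and 11.61 TPM (-7.02, SE 0.359, adjusted p = 0.00156), against 3825.34 and 3566.21 TPM at 8 dpa with DMSO. Both were low in the 8 dpa MS-275 samples and in no other epidermis group. GFZP01114777.1 rose from 1.64 and 1.53 TPM to 7.28 and 5.92 TPM. GFZP01125463.1 was listed at 0 in both 3 dpa samples and was at 1.38 and 1.68 TPM at 8 dpa, a level it also had at 0 dpa (1.69 and 2.37 TPM).

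Across all 32 called transcripts the 2 time points did not overlap, as was so for 15.7% of all tested transcripts in the upward and 30.1% in the downward direction (24.7% and 21.7% with rescaled TPM). Of the 22 that fell, 17 were above both DMSO samples at 3 dpa and 21 were below both DMSO samples at 8 dpa with MS-275. Of the 10 that rose, 9 were below both DMSO samples at 3 dpa. The shares of all transcripts with such positions were not counted. Picking transcripts by their change with MS-275 favours these positions. The 8 dpa DMSO samples also had larger median ratio factors, 1.48 and 1.38 against 0.888 and 0.852 at 8 dpa with MS-275. These counts are therefore no separate result.

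The genes with the next smallest p-values are given by their levels, since none was called. The 13 with higher values come first. PRG3, a granule protein of human eosinophils, was at 3.06 and 3.68 TPM at 3 dpa and at 10.85 and 12.61 TPM at 8 dpa with MS-275 (1.77, SE 0.209, adjusted p = 0.0540). The DMSO samples ran the other way, from 7.08 and 8.45 TPM to 1.55 and 1.63 TPM. FTH1-A, a ferritin heavy chain that stores iron, was at 724.83 and 783.99 TPM and then at 2433.02 and 2847.90 TPM (1.80, adjusted p = 0.0632), against 465.30 and 490.41 TPM at 8 dpa with DMSO. TF-A, a transferrin that carries iron, was at 5.02 and 6.02 TPM and then at 33.04 and 33.69 TPM (2.58, adjusted p = 0.0827). Ferritin and transferrin transcripts have close copies, and reads may have been divided between them.

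TSPO, a protein of the outer mitochondrial membrane, was at 21.03 and 22.05 TPM at 3 dpa and at 73.40 and 57.76 TPM at 8 dpa with MS-275. TREX2, a DNA exonuclease of keratinocytes, was at 2.14 and 3.06 TPM and then at 7.32 and 7.34 TPM. MTHFD2, a mitochondrial enzyme of folate metabolism, was at 41.63 and 40.35 TPM and then at 87.06 and 91.34 TPM. These 3 genes, together with PRG3 and the xenobiotic-oxidising enzyme CYP1A1, had DMSO levels that were lower at 8 than at 3 dpa, so that the treatments went in opposite directions. BAMBI, a decoy receptor of TGF-beta signals, was at 3.36 and 3.49 TPM and then at 8.90 and 7.72 TPM, with DMSO samples at 8.39 and 8.51 TPM at 8 dpa. CXCL8, the neutrophil-attracting chemokine, was at 4.07 and 2.47 TPM and then at 12.09 and 12.41 TPM (1.92, adjusted p = 0.123), and rose with DMSO as well (1.72, adjusted p = 0.0327).

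Of the 15 leading genes with higher values, the called 2 included, 8 fell and 2 rose with DMSO. Of all 3463 genes with a symbol, 133 fell and 753 rose. The difference between treatments was past the threshold for 10 of the 15 (12 with rescaled TPM). It was higher with MS-275 for 3.00% of the genes with a symbol (168 genes with rescaled TPM). The 15 were picked by their change with MS-275, which is part of this difference, so the count is no separate support. At 8 dpa with MS-275, 10 of the 15 were above both samples at 0 dpa, a count for which the share of all genes was not taken.

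The leading genes with lower values had varied functions. QNR-71, a melanosomal glycoprotein first described in quail, was at 27.06 and 27.35 TPM at 3 dpa and at 11.91 and 11.13 TPM at 8 dpa with MS-275 (-1.23, SE 0.144, adjusted p = 0.0540). With DMSO it rose from 26.25 and 26.12 TPM to 71.90 and 74.28 TPM. PSAT1, an enzyme of serine synthesis, was at 23.50 and 32.28 TPM and then at 4.27 and 4.59 TPM (-2.61, adjusted p = 0.0540), and fell with DMSO too, from 11.47 and 5.89 TPM to 2.13 and 2.21 TPM. HLCS, which attaches biotin to carboxylases, was at 16.46 and 15.50 TPM and then at 3.50 and 4.20 TPM, while with DMSO it rose from 1.95 and 3.62 TPM to 21.38 and 23.02 TPM. For HLCS the 2 treatments thus exchanged their order between the days.

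CXADR, an adhesion protein of epithelial junctions, was at 13.97 and 14.73 TPM at 3 dpa and at 6.69 and 6.23 TPM at 8 dpa with MS-275. GHR, the growth hormone receptor, was at 4.27 and 3.07 TPM and then at 1.23 and 1.14 TPM, against 12.10 and 9.63 TPM at 8 dpa with DMSO. NARS, which charges tRNA with asparagine, was at 40.03 and 35.76 TPM and then at 14.29 and 14.38 TPM. CCNG2, a cyclin that restrains division, had 3.08 and 2.84 TPM and then 0.61 and 0.72 TPM, the lowest of all groups. Of the 15 leading genes with lower values, the called 3 included, 6 rose and 1 fell with DMSO. At 8 dpa with MS-275, 11 were below both 0 dpa samples, again without a share of all genes. The difference between treatments was past the threshold for 12 of the 15, and for 4 with rescaled TPM. It was lower with MS-275 for 14.9% of the genes with a symbol (102 of 3463 with rescaled TPM). These 15 too were picked by a change that is part of the difference.

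Blood genes were higher at 8 dpa with MS-275. All 15 measured genes of the erythrocyte list (globins, heme synthesis, membrane proteins and erythroid transcription factors) had higher values at 8 dpa in both samples. Of the genes with a symbol, 21.7% did so (34.8% with rescaled TPM). The median log2 fold change of the list was 0.95, against -0.16 over the genes with a symbol and -0.13 over all transcripts. None of the 15 passed the adjusted threshold, and 11 of 15 had an unadjusted p under 0.05 with a higher value. The 3463 genes with a symbol are the fitting background for the lists. Their symbols come from the paper's own lists of changed transcripts, in which a stage or treatment was set against the homeostatic control. Of these genes, 7.25% had such a p with a higher and 17.8% with a lower value. The median of the erythrocyte list was 1.18 with rescaled TPM and stayed between 0.78 and 1.28 in the other alternatives. The summed level of the list was 22200 and 19370 TPM at 3 dpa and 57970 and 70660 TPM at 8 dpa, or 2.08% and 6.43% of all TPM. In the DMSO samples it was 57180 and 41880 TPM at 3 dpa and 7202 and 7988 TPM at 8 dpa, and it was 65610 and 61500 TPM at 0 dpa. In such bulk samples, more cells of a type and more RNA per cell cannot be told apart.

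The beta globin HBB1 measured 7088.81 and 6249.79 TPM at 3 dpa and 18866.30 and 22941.60 TPM at 8 dpa with MS-275 (1.64, SE 0.395, adjusted p = 0.186). The alpha globin HBA measured 3385.18 and 3416.87 TPM and then 10466.70 and 10787.20 TPM (1.64, SE 0.422, adjusted p = 0.207). Globin genes are close copies of each other, and their single levels are uncertain. ALAS2, the first enzyme of heme synthesis in red cells, was at 48.74 and 40.37 TPM and then at 80.30 and 86.02 TPM (0.90, SE 0.192, adjusted p = 0.156). HEMGN, an erythroid nuclear protein, was at 24.25 and 16.41 TPM and then at 55.60 and 65.44 TPM (1.59, adjusted p = 0.119), and NFE2, an erythroid transcription factor outside the list, at 1.87 and 1.85 TPM and then at 6.08 and 5.36 TPM. With DMSO all of these were lower at 8 than at 3 dpa, with ALAS2 falling from 67.89 and 59.06 TPM to 18.79 and 20.48 TPM.

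The difference between the 2 courses was past the threshold for 12 of the 15 erythrocyte genes, all higher with MS-275, against 3.00% of the genes with a symbol and 0.498% of all transcripts, and for 11 with rescaled TPM. This count was 4 or 8 without 8 dpa DMSO replicate 1 or 2, 6 or 3 without 3 dpa MS-275 replicate 1 or 2, 6 or 3 without 8 dpa MS-275 replicate 1 or 2, and 2 with all 20 samples in the fit. In an alternative chosen after seeing the data, the erythrocyte transcripts were left out and the TPM of the others brought back to the same total. The median of all transcripts was then -0.09, and 4 of the 32 transcripts were still called. PRDX2 and TSPO, like HEMGN of the list itself, had higher values in the same samples as the globins. FTH1-A was also highest at 8 dpa with MS-275, but it was lowest at 0 dpa (194.02 and 257.04 TPM), where the globins were high. The part of blood in these changes was not tested.

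**Figure D2:**
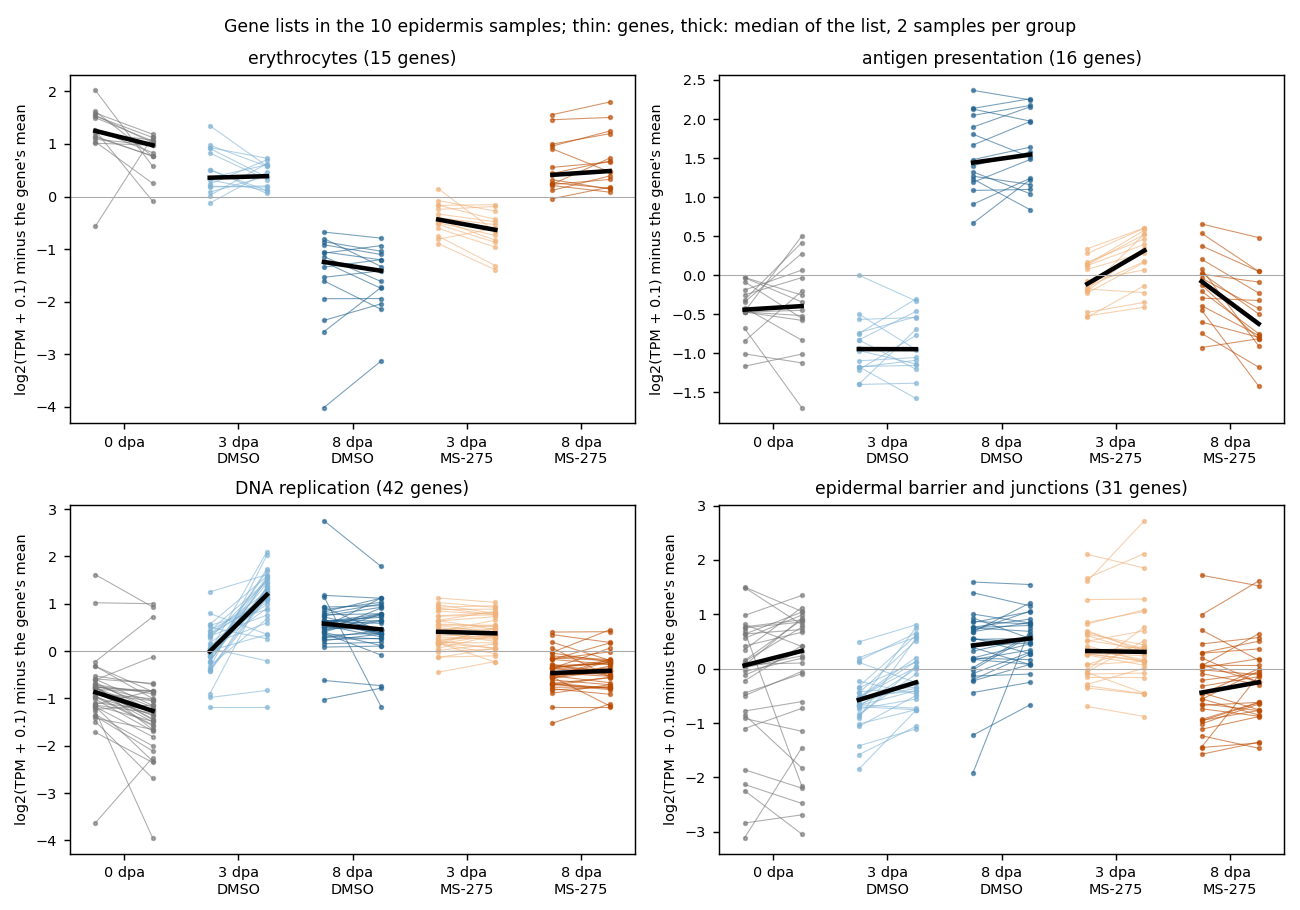
Levels of 4 gene lists in the 10 epidermis samples. The vertical axis is log2(TPM + 0.1) minus the mean of the gene over the samples, the horizontal axis gives the groups, thin lines join the 2 samples of a gene within a group and thick black lines join the medians of the list. Erythrocyte genes are lowest at 8 dpa with DMSO and higher at 8 than at 3 dpa with MS-275, while antigen presentation genes are highest at 8 dpa with DMSO.

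Cell division genes had lower values at 8 dpa. In the DNA replication list, 41 of 42 genes were lower and 19 had an unadjusted p under 0.05 with a lower value, with a median of -0.82 (-0.58 with rescaled TPM). In the mitosis list 50 of 53 were lower and 17 had such a p, with a median of -0.70 (-0.46 with rescaled TPM). No member of either list was called. PCNA, the sliding clamp of DNA polymerases, was at 86.68 and 83.55 TPM at 3 dpa and at 41.51 and 41.75 TPM at 8 dpa with MS-275 (-1.03, SE 0.337, adjusted p = 0.282). DUT, which keeps uracil out of DNA, was at 6.21 and 5.78 TPM and then at 2.02 and 1.29 TPM (-1.83, SE 0.280, adjusted p = 0.0887). STMN1, a microtubule regulator of dividing cells, was at 113.76 and 109.77 TPM and then at 70.38 and 66.48 TPM (-0.71, adjusted p = 0.287).

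With DMSO, the DNA replication list had a median change of -0.03 (-0.74 with rescaled TPM), and 1 of its 42 genes had a difference between treatments past the threshold, DUT. The median difference of the list was -0.68, against -0.66 over all transcripts. It depended on single samples, at -0.22 without 3 dpa DMSO replicate 1 and -1.24 without replicate 2. Over all transcripts these fits gave -0.48 and -0.81. With rescaled TPM the sign turned, with 28 of the 42 higher with MS-275 and a median of 0.27. Of the 53 mitosis genes, the difference passed the threshold for 4 that were lower with MS-275 (7.55%) and 1 that was higher. That was fewer than the 14.9% lower among the genes with a symbol, and with rescaled TPM it was 0 lower and 2 higher. TOP2A, the topoisomerase that untangles chromosomes and a gene named after its values were seen, was at 9.75 and 9.18 TPM and then at 4.51 and 4.36 TPM with MS-275. DMSO samples had 3.10 and 9.21 TPM and then 22.72 and 24.85 TPM (difference -3.20, adjusted p = 0.0374). The replicates of 3 dpa with DMSO were themselves apart for such genes, as with PCNA at 78.25 and 161.40 TPM. The polycomb methyltransferase gene EZH2, named in the same way, was at 4.79 and 4.38 TPM and then at 2.21 and 2.41 TPM with MS-275 (adjusted p = 0.369). Over the 51 chromatin regulators and histones, 17 were higher and 34 lower, with a median of -0.34 (-0.11 with rescaled TPM). The share lower, 66.7%, was near the 61.5% of the genes with a symbol.

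Genes of the epidermal barrier were mostly lower at 8 than at 3 dpa with MS-275. Of 31 junction, cornified envelope and differentiation genes, 26 were lower and 17 of these had an unadjusted p under 0.05, with a median of -0.69 (-0.45 with rescaled TPM). OCLN, the tight junction protein occludin, was at 14.38 and 13.18 TPM and then at 5.44 and 6.41 TPM (-1.21, SE 0.168, adjusted p = 0.0709). It rose with DMSO from 8.28 and 8.93 TPM to 16.04 and 16.51 TPM, and the difference was past the threshold (-2.12, adjusted p = 0.00696), though not with rescaled TPM (adjusted p = 0.0767). DSG2, a desmosomal cadherin, was at 128.20 and 102.58 TPM and then at 39.66 and 51.06 TPM (-1.35, adjusted p = 0.146). DSP, which ties desmosomes to keratin filaments, was at 32.08 and 31.07 TPM and then at 13.50 and 17.00 TPM (-1.05, adjusted p = 0.172). CDH1, E-cadherin, a gene named after its values were seen, was at 65.79 and 53.31 TPM and then at 20.81 and 17.71 TPM (-1.62, adjusted p = 0.128). With DMSO 12 of the 31 genes rose, as did 753 of the 3463 genes with a symbol, and none fell. This rise depended on the scaling. With rescaled TPM 0 of the 31 rose and 2 fell with DMSO, against 202 and 294 of the genes with a symbol. Between treatments 13 differed, all lower with MS-275, against 14.9% of the genes with a symbol. In the limma fit the count was 0 without 8 dpa DMSO replicate 1 (19 lower with an unadjusted p under 0.05), 2 without replicate 2, 2 or 1 without 3 dpa MS-275 replicate 1 or 2, and 2 without either 8 dpa MS-275 replicate. It was 19 without 3 dpa DMSO replicate 2. With rescaled TPM none of the 31 differed past the threshold, with adjusted p = 0.0506 for DSG2 and 0.0848 for DSP.

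Barrier genes did not all move together. TP63, the transcription factor of the basal epidermis, was at 6.41 and 5.94 TPM and then at 4.27 and 5.33 TPM (-0.36, adjusted p = 0.706). TGM3, which cross-links the cornified envelope, was at 2621.77 and 2203.03 TPM and then at 1212.34 and 1868.60 TPM, above the 450.05 and 512.91 TPM of the 8 dpa DMSO samples. CNFN, another envelope protein, was at 93.30 and 161.90 TPM and then at 155.54 and 105.92 TPM, with overlapping groups.

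Among 14 keratins, 5 were higher and 9 lower, with a median of -0.37 (-0.12 with rescaled TPM). The share lower, 64.3%, was near the 61.5% of the genes with a symbol. KRT5 of the basal layer was at 132.24 and 84.78 TPM and then at 22.57 and 24.56 TPM (-2.16, SE 0.649, adjusted p = 0.254), and had a like course with DMSO (difference 0.75, adjusted p = 0.667). KRT15 was at 4320.67 and 4317.64 TPM and then at 2237.77 and 2202.00 TPM (-0.96, adjusted p = 0.345). KRT12 overlapped between the days, at 640.41 and 644.00 TPM and then at 526.88 and 707.29 TPM. Keratin transcripts resemble each other, so the levels of single keratins are uncertain.

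Secretory genes went in both directions, with 8 of 24 higher and 16 lower (median -0.56, or -0.33 with rescaled TPM). The share lower, 66.7%, was near the 61.5% of the genes with a symbol. In the limma fit, 10 lower genes (41.7%) and 3 higher ones (12.5%) had an unadjusted p under 0.05. Among the genes with a symbol these shares were 17.8% and 7.25%. With the transcripts of each gene summed, 4 of the 24 were higher and 20 lower. TFF3, a trefoil peptide that protects mucosa, was at 17.61 and 19.69 TPM and then at 49.78 and 72.38 TPM with MS-275 (1.68, SE 0.251, adjusted p = 0.0827). AGR2-A, which folds mucins, was at 820.62 and 765.52 TPM and then at 1061.29 and 1009.51 TPM (0.39, adjusted p = 0.495), above the 376.09 and 409.37 TPM of the 8 dpa DMSO samples. MSLN and MUC5AC were named after their values were seen. MSLN, the cell surface protein mesothelin, was at 28.40 and 31.82 TPM and then at 5.56 and 4.80 TPM (-2.52, adjusted p = 0.168), against 84.69 and 128.92 TPM at 8 dpa with DMSO. The mucin gene MUC5AC was at 0.05 TPM in both samples and then at 1.38 and 1.06 TPM (adjusted p = 0.156).

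**Figure D3:**
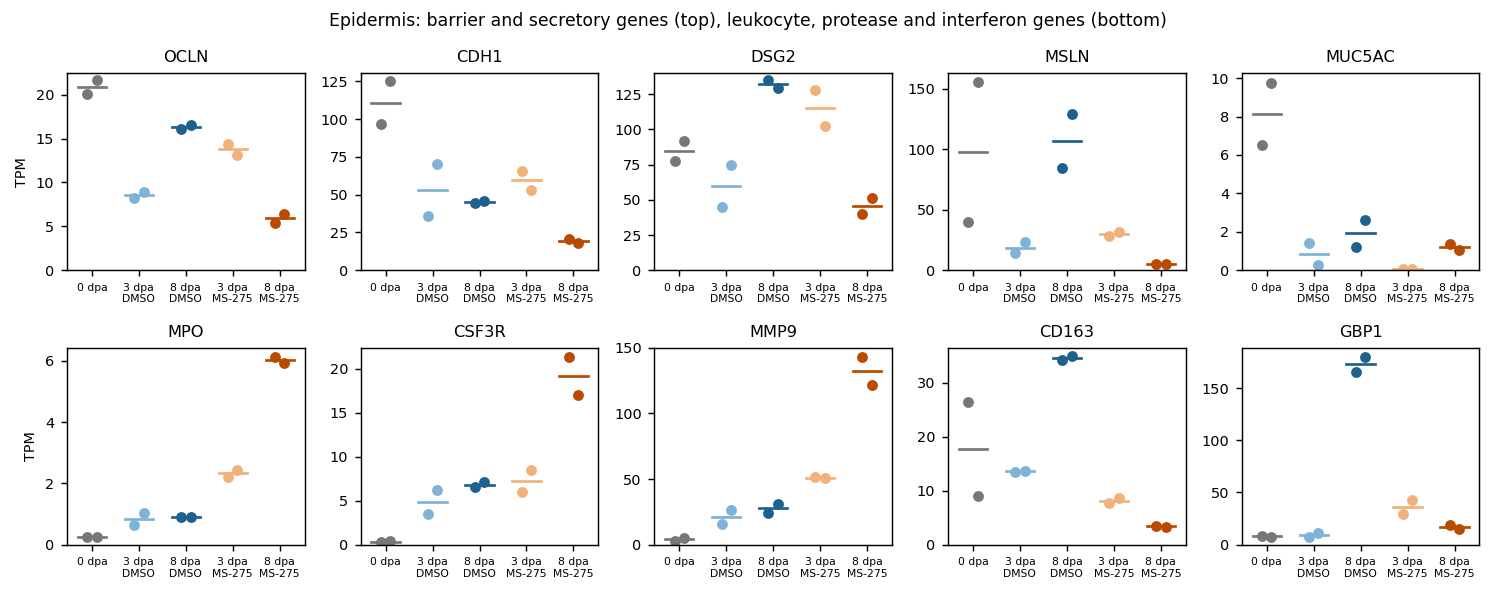
TPM (vertical axis, linear from 0) of 10 genes in the 10 epidermis samples by group. Each point is 1 sample and each line the mean of 2. OCLN, CDH1, DSG2 and MSLN are lower at 8 than at 3 dpa with MS-275, MPO, CSF3R and MMP9 are higher, and GBP1 is highest at 8 dpa with DMSO, at 165.47 and 180.35 TPM.

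Leukocyte genes went in both directions. Of 56 genes, 33 were higher and 23 lower at 8 dpa with MS-275, with a median of 0.06 (0.31 with rescaled TPM). The share higher, 58.9%, was above the 38.5% of the genes with a symbol. With rescaled TPM 40 of the 56 were higher, against 1846 of 3463. The median was -0.05 without 3 dpa MS-275 replicate 1 and -0.04 without 8 dpa MS-275 replicate 1. PTPRC, which encodes the leukocyte antigen CD45, was at 11.56 and 13.51 TPM and then at 13.90 and 10.47 TPM. Some members with small p-values were named after their values were seen, and differed in direction. CSF3R, the receptor of the granulocyte growth factor, was at 5.96 and 8.48 TPM and then at 21.33 and 16.94 TPM (1.41, adjusted p = 0.174), and MPO, a peroxidase of neutrophil granules, at 2.22 and 2.44 TPM and then at 6.14 and 5.93 TPM (1.34, adjusted p = 0.173). In contrast CD163, a scavenger receptor of macrophages, was at 7.72 and 8.55 TPM and then at 3.52 and 3.18 TPM (-1.26, adjusted p = 0.286), and ADGRE1, another macrophage receptor, at 2.67 and 2.70 TPM and then at 1.45 and 1.19 TPM (-0.98, adjusted p = 0.227). With DMSO 54 of the 56 leukocyte genes were higher at 8 dpa (median 1.08, or 0.38 with rescaled TPM). Of the 56, 30 rose, as did 753 of the 3463 genes with a symbol (6 and 202 with rescaled TPM). CD163 was at 34.31 and 34.99 TPM and ADGRE1 at 5.03 and 5.20 TPM at 8 dpa with DMSO. The difference between treatments was past the threshold for 12 of the 56 (21.4%), all lower with MS-275, and with rescaled TPM for 1 lower and 1 higher. The share was not far from the 14.9% of the genes with a symbol. Without a single 3 dpa MS-275, 8 dpa DMSO or 8 dpa MS-275 sample, the 12 became 2 to 5, and it was 20 without 3 dpa DMSO replicate 2.

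Inflammatory mediators were mixed as well, with 21 of 35 higher and a median of 0.28. The share higher, 60%, was above the 38.5% of the genes with a symbol. With rescaled TPM it was 27 of 35, against 1846 of 3463. Apart from CXCL8, the cytokine gene IL1B was at 125.05 and 97.00 TPM and then at 97.71 and 114.30 TPM, above the 46.04 and 50.46 TPM of 8 dpa DMSO samples. NLRP3, the inflammasome sensor, named after its values were seen, was at 15.72 and 19.07 TPM and then at 4.94 and 6.37 TPM (-1.61, adjusted p = 0.177), against 32.57 and 37.24 TPM at 8 dpa with DMSO. Proteases of the wound had a median of 0.27 over 29 genes, 20 of them higher. MMP9, a gelatinase of leukocytes and wound keratinocytes named in the same way, was at 51.25 and 51.00 TPM and then at 143.31 and 121.67 TPM (1.37, SE 0.332, adjusted p = 0.190). Its inhibitor TIMP1 was at 157.29 and 140.11 TPM and then at 242.98 and 295.96 TPM (0.85, adjusted p = 0.402).

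Antigen presentation genes were high at 8 dpa with DMSO and not with MS-275. All 16 rose with DMSO, against 753 of the 3463 genes with a symbol, with a median of 2.45 (1.74 with rescaled TPM, 10 of 16 called). With MS-275 3 of the 16 were higher and 13 lower, none was called, and 6 of the lower ones had an unadjusted p under 0.05, with a median of -0.48. PSMB9, a subunit of the immunoproteasome, was at 28.29 and 46.66 TPM and then at 23.67 and 12.02 TPM with MS-275 (-1.10, SE 0.351, adjusted p = 0.274). With DMSO it rose from 14.30 and 10.77 TPM to 142.41 and 155.04 TPM. PSME2, a proteasome activator, was at 258.43 and 311.43 TPM and then at 193.47 and 189.48 TPM, whereas it was at 503.20 and 507.85 TPM at 8 dpa with DMSO. At 3 dpa, the MS-275 samples were above both DMSO samples for PSMB9, PSMB8 and PSME2, and at 8 dpa below them. The difference between the courses was past the threshold for 12 of the 16 genes, all lower with MS-275, against 14.9% of the genes with a symbol and 4.00% of all transcripts, and for 7 with rescaled TPM.

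Interferon response genes had the same pattern. Of 25, 21 rose with DMSO, again against 753 of 3463 (median 2.13, 15 called with rescaled TPM), and with MS-275 19 were lower and 6 higher (median -0.53, no call, 9 lower ones with an unadjusted p under 0.05). GBP1, an interferon-induced GTPase, was at 29.37 and 42.51 TPM and then at 18.58 and 14.85 TPM with MS-275 (-1.08, SE 0.265, adjusted p = 0.193), and rose with DMSO from 6.80 and 10.60 TPM to 165.47 and 180.35 TPM. IRF1, the transcription factor of the response, was at 49.91 and 63.40 TPM and then at 56.57 and 49.81 TPM with MS-275, while it rose with DMSO from 13.23 and 17.10 TPM to 151.05 and 166.26 TPM. IFI6, 1 of the list, had close levels at 8 dpa under both treatments. It was at 99.66 and 91.25 TPM and then at 114.46 and 120.24 TPM with MS-275 and at 120.93 and 124.54 TPM at 8 dpa with DMSO. The courses differed for 19 of the 25 genes, all lower with MS-275, against 14.9% of the genes with a symbol. With rescaled TPM they differed for 7, against 102 of the 3463 genes with a symbol. Without 8 dpa DMSO replicate 1 the count was 2, without replicate 2 it was 8, and without 1 of the 4 MS-275 samples it was 6 to 8.

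**Figure D4:**
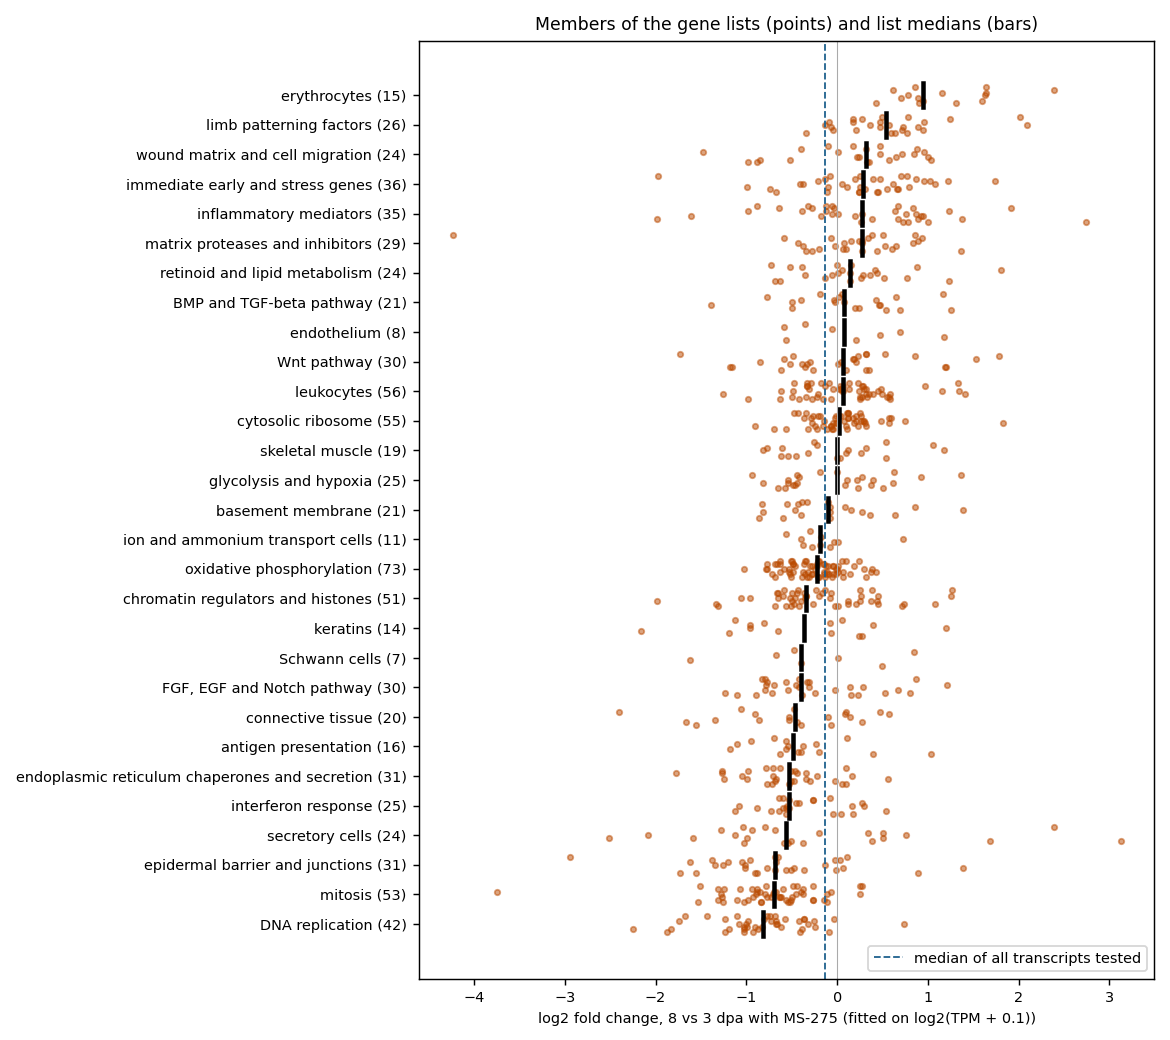
Log2 fold change from 3 to 8 dpa with MS-275 (horizontal axis, fitted on TPM + 0.1) of the members of 29 gene lists, 1 row per list with its number of genes in brackets. Points are genes, black bars list medians and the dashed line the median of all transcripts, -0.13. The erythrocyte list has the highest median, 0.95, and DNA replication the lowest, -0.82.

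Limb patterning factors were weakly expressed and mostly higher at 8 dpa with MS-275. Of 26 genes, 21 were higher (25 with rescaled TPM), with a median of 0.53 (0.74 with rescaled TPM). None was called, and 3 higher ones had an unadjusted p under 0.05. The sum of their 29 transcripts was 14.9 and 12.9 TPM at 3 dpa and 26.0 and 16.5 TPM at 8 dpa. PRRX1, a transcription factor of limb mesenchyme, was at 1.51 TPM in both samples and then at 3.00 and 1.75 TPM (0.57, adjusted p = 0.671). SOX9, a chondrogenic transcription factor and one of the most abundant of them, was at 3.01 TPM in both samples and then at 3.03 and 2.80 TPM.

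Wound matrix and migration genes had a median of 0.32 and immediate early and stress genes of 0.28. The cytosolic ribosome had a median of 0.02. Oxidative phosphorylation genes had a median of -0.22 as deposited and 0.02 with rescaled TPM, and the signs of the basement membrane list (-0.10 and 0.01) and of the ion transport cell list (-0.19 and 0.05) turned in the same way. Endoplasmic reticulum chaperones and secretion genes were lower in 26 of 31 cases, with a median of -0.53 (-0.29 with rescaled TPM). Connective tissue genes had a median of -0.46, with COL1A1 at 366.41 and 297.81 TPM and then at 469.43 and 283.86 TPM. The matrix protein POSTN, named after its values were seen, was at 126.58 and 104.35 TPM and then at 40.08 and 42.16 TPM (-1.48, adjusted p = 0.156).

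Over all transcripts, the change from 3 to 8 dpa differed between MS-275 and DMSO for 439 that were higher with MS-275 (0.498%) and 3529 that were lower (4.00%), 3968 in all (4.50%). With rescaled TPM the numbers were 557 (0.632%) and 468 (0.531%), 1025 in all (1.16%). For 417 of the 439 the MS-275 samples went up and the DMSO samples down, and for 3389 of the 3529 the reverse held. Picking transcripts by the difference favours opposite signs, and the medians of all transcripts were themselves -0.13 and 0.53. The share of all transcripts with opposite signs was not counted, so these counts are no separate result. The 4671 transcripts that rose with DMSO had a median log2 fold change of 1.70 there. With MS-275 their median was -0.29, against -0.13 over all transcripts. Transcripts averaging at least 1 TPM had a median of -0.24, so -0.29 was near that of the better expressed transcripts. Only 1 of the 4671, GKN2, was called higher under both treatments. The 424 that fell with DMSO had a median of -2.31 there and of 0.42 with MS-275. The total of 3968 was 258 without 8 dpa DMSO replicate 1 and 655 without replicate 2, 2377 and 8954 without 3 dpa DMSO replicate 1 and 2, 538 and 385 without 3 dpa MS-275 replicate 1 and 2, and 727 and 437 without 8 dpa MS-275 replicate 1 and 2.

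**Figure D5:**
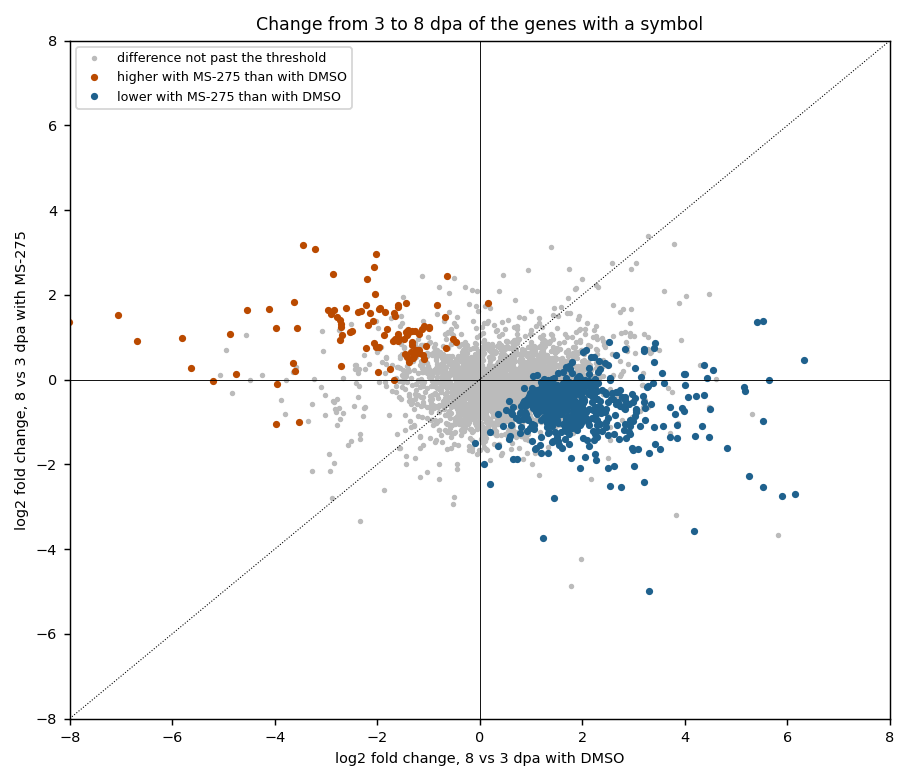
Log2 fold change from 3 to 8 dpa with DMSO (horizontal axis) and with MS-275 (vertical axis) for 3463 genes with a symbol, 4 of which lie outside the axes. Points are genes, coloured where the difference between the 2 changes passed the threshold, 104 higher (orange) and 517 lower (blue) with MS-275. On the dotted diagonal both changes are equal.

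Some genes with the smallest p-values for this difference had a main transcript at or near 0 at 8 dpa with DMSO. The main transcript of RPL23, a ribosomal protein, was at 2415.22 and 1850.37 TPM and then at 1787.67 and 2059.15 TPM with MS-275, and was listed at 0 in both 8 dpa DMSO samples. The sum of its 3 paired transcripts there was 4.06 and 3.01 TPM, against 1806 and 2087 TPM at 8 dpa with MS-275. The main transcript of CIRBP, an RNA-binding protein induced by cold, was at 3287.37 and 3520.89 TPM and then at 3944.93 and 3692.09 TPM with MS-275 and also listed at 0 there. Another CIRBP transcript was at 4934.52 and 4569.42 TPM in those DMSO samples, and the sum over its 11 transcripts was 5830 and 5675 TPM, close to the 5212 and 4804 TPM at 8 dpa with MS-275. RPS20 showed a like exchange, with its main transcript at 3.94 and 9.75 TPM and its sum at 2699 and 2809 TPM. The cause was not tested. In the MS-275 samples the main transcripts of RPL23, CIRBP and RPS20 moved between the days by no more than 0.17 on the log2 scale. The other CIRBP transcript was at 593.13 and 436.47 TPM and then at 86.89 and 144.60 TPM with MS-275 (-2.18). EEF1AS was at 6.43 and 9.33 TPM and then at 17.10 and 12.65 TPM (0.92). Neither was called.

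Other genes of this group had DMSO levels well above 0 at both days. GNMT, which uses up the methyl donor S-adenosylmethionine, was at 372.68 and 356.56 TPM and then at 248.47 and 208.78 TPM with MS-275 (-0.68, adjusted p = 0.194). With DMSO it rose from 25.16 and 28.79 TPM to 252.37 and 253.70 TPM, so the treatments were apart at 3 dpa and close at 8 dpa. ABCB9, a peptide transporter of lysosomes, was at 6.65 and 6.86 TPM and then at 6.48 and 5.58 TPM with MS-275, and rose from 2.68 and 2.42 TPM to 23.97 and 26.43 TPM with DMSO. IRGC, of the immunity-related GTPase family, was at 17.90 and 16.00 TPM and then at 10.63 and 9.92 TPM with MS-275 and at 44.58 and 48.72 TPM at 8 dpa with DMSO. The 3 differences were also past the threshold with rescaled TPM (adjusted p = 0.00463 for GNMT, 0.0190 for ABCB9 and 0.00503 for IRGC).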

How the data were processed

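RNA sequencing of 20 samples was used, and the 10 of the epidermis were fitted. The authors checked and trimmed reads (FastQC, cutadapt), aligned them to the axolotl transcriptome (bowtie2) and deposited transcript TPM from RSEM, rounded to 2 decimals. The paper names a TruSeq kit and the labels a SureSelect kit, and the injected volume is 2 ml in the paper and 2 µl in the labels. TPM are shares, so counts and depth are unknown and the authors' count model was not repeated.

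Using R 4.3.3, log2(TPM + 0.1) was modelled with limma 3.58.1, with 5 groups and a variance trend. All tests were two-sided, the Benjamini-Hochberg method was applied over 88139 transcripts, and 2 against 2 samples cannot go under p = 0.333 in an exact permutation test. The script was tested on simulated data. Additional Files B and F of the paper, at hand in shortened form, gave the symbols (4733 transcripts, 3502 symbols, 3463 tested), and a gene is its most abundant paired transcript. Named were up to 15 genes per direction, filled by smallest p at a mean of at least 1 TPM, the most abundant list members (3 per list), the leading 5 per direction of the difference between treatments, cell type markers, and 2 transcripts without a symbol per direction. The members and the 29 lists were chosen with earlier results of these data known. Alternatives were a pseudocount of 1, other filters, rescaled TPM, no trend, a replicate block, other sample sets, each replicate left out and, added later, TPM without erythrocyte transcripts. The values of 1 leukocyte gene are not reported here.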

Additional observations from a re-analysis of the deposited data

Results flagged for a closer look

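The change from 3 to 8 dpa differed between MS-275 and DMSO, by a test of the difference itself, for 3968 transcripts (4.50%). Of the 3463 genes with a symbol it differed for 104 that were higher (3.00%) and 517 that were lower (14.9%) with MS-275. By number, the lists with the most such genes included 12 of 15 erythrocyte genes, higher with MS-275. Lower with MS-275 were 12 of 16 antigen presentation, 19 of 25 interferon response and 13 of 31 barrier genes. So were 12 of 56 leukocyte (21.4%, not far from 14.9%), 12 of 35 inflammatory and 9 of 24 secretory genes. With rescaled TPM, 11 erythrocyte genes were higher, and 7 antigen presentation, 7 interferon response and 0 barrier genes were lower. Leukocyte genes then had 1 lower and 1 higher, and inflammatory and secretory genes 2 lower and 2 higher each. Of the 3463 genes, 102 were then lower and 168 higher.

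Each value below is the log2 fold change with MS-275 minus that with DMSO, in the limma fit. It was positive for HBAA (4.58), PRG3 (3.99), TSPO (3.96), NFE2 (3.71), PRDX2 (3.63), HEMGN (3.44), CYP1A1 (3.24), MTHFD2 (2.56), TREX2 (2.16) and FTH1-A (1.65). A value of 8.92 for RPS20 goes with an exchange between its transcripts at 8 dpa with DMSO. It was negative for GBP1 (-5.42), HLCS (-5.04), GNMT (-3.91), DUT (-3.88), IRGC (-3.77), ABCB9 (-3.42), QNR-71 (-2.71), GHR (-2.71), CATHL1 (-2.67) and KCNJ16 (-2.61). Smaller negative differences were found for OCLN (-2.12), CXADR (-2.12), CCNG2 (-2.08), NARS (-1.96), B4GALT1 (-1.91) and CRISPLD2 (-1.40).

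For 3 genes the DMSO samples at 8 dpa were listed at 0 and no difference is given. In replicate 1 at 8 dpa with MS-275 their level was 1787.67 TPM for RPL23, 3944.93 TPM for CIRBP and 17.10 TPM for EEF1AS.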

How the results depend on the processing

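With MS-275, 32 transcripts were called, and 166 over transcripts averaging at least 1 TPM, 51 with a pseudocount of 1, 3 without the trend, 2 with the replicate block, 16 in the 8 samples at 3 and 8 dpa, 121 with all 20 samples and 0 in the 4 MS-275 samples alone (limma, 15029 at an unadjusted p under 0.05). It was 4 without erythrocyte transcripts, an alternative chosen after seeing the data, and 0 to 355 when each replicate was left out. The DMSO count of 5095 was 7975 over transcripts averaging at least 1 TPM, 1327 with rescaled TPM, 2306 without the trend, 3288 with the block and 139 to 8530 with a replicate left out. The difference between treatments, 3968 transcripts, was 7274, 1025, 1128, 2363 and 258 to 8954 under these settings. The median change of all transcripts with MS-275, -0.13, was -0.042 with a pseudocount of 1, -0.24 over transcripts averaging at least 1 TPM, -0.0057 without a filter, 0.035 with rescaled TPM and -0.19 to -0.082 with a replicate left out. The causes were not tested. Same-numbered samples did not deviate together (correlation of deviations -0.03 with MS-275 and -0.0081 with DMSO), so the numbers were not read as pairs. No named gene reversed among called values. With 2 pools per group and unknown depth, changes of weakly expressed genes are the least certain, and the median SE was 0.518 over all transcripts and 0.260 over the 5675 with a mean of at least 10 TPM.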
